A study of Mus musculus with 36 samples.

Results

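The response to lipopolysaccharide (LPS, the cell wall endotoxin of Gram-negative bacteria) was described in anti-HA precipitates of mouse brain that the labels assign to Lyve1+ macrophages. It set 4 HA libraries made 12 h after an intraperitoneal injection of LPS at 2.5 mg/kg against 6 HA libraries at steady state, 10 of the 36 samples of the series, chosen by their labels alone. The mice of both groups carried 1 genotype, CX3CR1-CCre+/-:Lyve1-NCre+/-:Ribo-tag+/-, so the steady-state mice carried every allele of the LPS mice. In this split-Cre design each promoter drives one part of Cre recombinase, and a cell that has used both promoters gains an HA tag on the ribosomal protein Rpl22, by which its ribosomes and their mRNA can be precipitated. Precipitates were made from brain homogenate with anti-HA antibody or with IgG, and 4 IgG libraries after LPS and 6 at steady state gave the background. Libraries were made by MARS-seq, which counts the 3′ ends of transcripts. Sex, age and strain were not analysed here. The submitters state that each brain gave both an HA and an IgG precipitate, but not which libraries share a brain or whether libraries of 1 group come from separate animals, so p-values measure the spread between these libraries, which may be technical.

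Lyve1-expressing macrophages line the vessels and meninges of the brain. LPS is handed by LPS-binding protein and CD14 to the receptor TLR4, which signals through MyD88 to NF-kB and through a second arm to interferon genes. Cytokines made in this way also act on endothelium and astrocytes, which respond through STAT3 and NF-kB with acute-phase, adhesion and matrix genes.

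Library totals were 682445 to 1380452 counts after LPS and 603565 to 1495301 counts at steady state in HA, and 362063 to 976737 counts after LPS and 890338 to 1474373 counts at steady state in IgG. Each library carries a pair of numbers in its column name, such as 1-1, whose meaning the labels do not give. On the first principal component of the HA libraries, which held 45.3% of their variance, LPS library 1-1 stood at 5.24 and the other 3 LPS libraries at 28.4 to 63.1, against -36.8 to -9.53 for the steady-state libraries. The Y-linked gene Ddx3y had 13.7 to 45.6 counts per 1000000 of the library size after TMM scaling (CPM) in the LPS libraries and 0 to 1.43 CPM in the steady-state libraries, so LPS and this sex-linked pattern cannot be told apart. Prrc2a, an RNA-binding protein gene, had 867, 890, 10896 and 13566 CPM in LPS libraries 1-1, 1-2, 2-1 and 2-2, against 518 to 830 CPM at steady state. The libraries of first number 2 stood far above the other LPS libraries, in IgG as well (1189, 1487, 16867 and 14010 CPM). The call of Prrc2a in HA (log2 ratio 3.18, adjusted p = 0.00966, edgeR) was lost without the LPS libraries of first number 2 (0.28, adjusted p = 0.885).

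The labelled cell type was checked against its markers. Lyve1 had 0 to 1.77 CPM after LPS and 2.72 to 10.02 CPM at steady state, and Cx3cr1, the fractalkine receptor gene of microglia and macrophages, had 1.66 to 5.85 CPM after LPS and 4.32 to 12.1 CPM at steady state. Both driver genes were under the filter on low counts. Tested without that filter, Lyve1 was lower after LPS (log2 -2.60, adjusted p = 0.00819), as it was when libraries of 1 group and first number were summed (log2 -2.69, adjusted p = 0.0172, edgeR). Cx3cr1 did not pass without the filter (log2 -1.16, adjusted p = 0.104) or with summed libraries (log2 -1.16, adjusted p = 0.18). Pf4, a chemokine gene of border macrophages, had 20.7, 21.2, 41.7 and 48.7 CPM after LPS, and its lowest, median and highest values at steady state were 10.4, 24.3 and 31.5 CPM. It stood above IgG in both states (log2 ratio of HA over IgG 3.62 after LPS and 3.84 at steady state, adjusted p = 8.13e-06 and 5.93e-09, edgeR), and its LPS response did not pass the test (log2 0.51, adjusted p = 0.204), but did without the LPS libraries of first number 1 (log2 0.98, adjusted p = 0.0244). Of the 6 border macrophage markers tested, Pf4 among them, 5 stood above IgG at steady state and 2 after LPS (adjusted p under 0.05, edgeR). The summed border macrophage markers, 9 of 10 listed, had 116 to 178 CPM after LPS and 97.9 to 225 CPM at steady state in HA, and 32.1 to 71.9 CPM after LPS and 31.8 to 47.5 CPM at steady state in IgG. Transcripts of other cells were abundant in HA. Choroid plexus markers summed to 2377 to 2714 CPM after LPS and 1882 to 2968 CPM at steady state, and neuron markers to 2546 to 3777 CPM after LPS and 3451 to 4130 CPM at steady state. In IgG, choroid plexus markers had 1027 to 1113 CPM after LPS and 942 to 1474 CPM at steady state. The neuron sums overlapped those of IgG. Microglia markers had 184 to 205 CPM after LPS in HA and 91.5 to 146 CPM in IgG. Fibroblast markers had 3897 to 5239 CPM after LPS in HA and 2184 to 2689 CPM in IgG. Of 5 microglia markers tested, 2 stood above IgG at steady state and 3 after LPS. Sums above IgG after LPS were thus not particular to border macrophage markers. The 6 lymphocyte markers were not listed.

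Of 9680 genes tested, among 12403 listed, 1690 passed the test between LPS and steady state in HA (17.5%; edgeR quasi-likelihood test, adjusted p under 0.05). Of these, 916 rose (9.46%) and 774 fell (8.0%). Changes of at least 2-fold were found in 425 genes that rose (4.39%) and 248 that fell (2.56%). The number that passed was 1044 without LPS library 1-2, 1096 without LPS library 2-2 and 2324 without LPS library 1-1. It was 574 without both LPS libraries of first number 2, and 1003 without both steady-state libraries of first number 1. The authors' deposited table, whose fold change runs steady state over LPS, held 1772 genes with an adjusted p under 0.05, of which 1573 also passed here in the same direction. Counts of list members below are to be read against the shares of all genes tested, 9.46% upward and 8.0% downward. Sentences below that leave out libraries of a first number use fits chosen after the data were seen.

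The genes with the largest rise coded for serum amyloid, siderophore-binding and neutrophil-directed proteins. Saa3, the serum amyloid A gene expressed outside the liver in mouse, had 3464, 3646, 3682 and 4280 CPM in the 4 LPS libraries, against a lowest, median and highest of 0, 1.39 and 2.59 CPM at steady state. It rose by log2 11.17 ± 0.31 (SE; adjusted p = 1.97e-20, edgeR), and the 4 LPS libraries lay close together, far above steady state. Groups without overlap were part of the rule by which the genes with the largest change were named. Lcn2, lipocalin 2, which binds bacterial siderophores, had 800, 971, 974 and 1310 CPM after LPS, against 0, 0.453 and 3.36 CPM at steady state (log2 9.43 ± 0.30, adjusted p = 2.1e-20; 10.31 without steady-state library 2-1, the highest of its group). Csf3, granulocyte colony-stimulating factor, had 53.8, 53.9, 115 and 142 CPM after LPS and 0 counts in each of the 6 steady-state libraries. Taking 3 counts over the steady-state group as the floor, it was at least 172-fold higher (adjusted p = 0.00111), and it did not pass when libraries of a first number were summed (adjusted p = 0.101). LPS libraries 2-1 and 2-2 held the higher values. In IgG these genes rose as well, Saa3 by log2 9.71 and Lcn2 by 9.30. Csf3 had 0 steady-state counts in IgG too, and was at least 150-fold higher there over the same floor. The difference between the HA and IgG responses did not pass in any of them.

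Promoters of 5 genes named as raised hold a motif of NF-kB, STAT or interferon signalling, and 4 of them are shown because the 250 bases before their start hold motifs of the kappaB or interferon kind. The sequences come from the RefSeq promoter table of GRCm38.p6, another build than the mm9 of the deposited counts, and run 5′ to 3′ on the strand of the gene, with the motif matches in capitals. The Saa3 promoter lies at chr7:46715677-46715926 on the minus strand, that of Cxcl1 at chr5:90890995-90891244 on the plus strand, that of Fcgr4 at chr1:171018676-171018925 on the plus strand and that of Steap4 at chr5:7960222-7960471 on the plus strand.
Saa3 promoter: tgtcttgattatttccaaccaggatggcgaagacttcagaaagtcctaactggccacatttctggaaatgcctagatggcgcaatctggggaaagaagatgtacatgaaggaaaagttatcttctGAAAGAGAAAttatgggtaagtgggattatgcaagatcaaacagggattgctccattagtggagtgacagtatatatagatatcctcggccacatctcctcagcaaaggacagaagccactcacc
Cxcl1 promoter: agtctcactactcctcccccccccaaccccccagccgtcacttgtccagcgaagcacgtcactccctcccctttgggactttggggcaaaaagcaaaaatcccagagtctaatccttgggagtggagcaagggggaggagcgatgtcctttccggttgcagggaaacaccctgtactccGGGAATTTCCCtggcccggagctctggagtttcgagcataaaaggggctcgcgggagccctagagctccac
Fcgr4 promoter: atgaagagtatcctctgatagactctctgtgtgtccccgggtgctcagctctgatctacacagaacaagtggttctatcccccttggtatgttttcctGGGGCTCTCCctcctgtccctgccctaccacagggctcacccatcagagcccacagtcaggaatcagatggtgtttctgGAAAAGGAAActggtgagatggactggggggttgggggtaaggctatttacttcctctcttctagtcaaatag
Steap4 promoter: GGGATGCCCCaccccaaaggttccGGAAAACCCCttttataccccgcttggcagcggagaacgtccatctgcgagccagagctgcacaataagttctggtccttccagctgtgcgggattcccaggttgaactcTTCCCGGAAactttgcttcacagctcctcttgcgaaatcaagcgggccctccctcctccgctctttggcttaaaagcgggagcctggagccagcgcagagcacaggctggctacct
In Saa3 the capitals mark an interferon-stimulated response element (ISRE, TTTC, NN and TTTC in a row) read on the opposite strand, 125 to 116 bases before the start. In Cxcl1 they mark the kappaB consensus at 71 to 62 bases and a match on the opposite strand at 70 to 61 bases, which overlap. In Fcgr4 they mark a kappaB consensus at 152 to 143 bases and an ISRE on the opposite strand at 73 to 64 bases. In Steap4 they mark kappaB matches on the opposite strand at 250 to 241 and 226 to 217 bases, and a STAT motif (TTCNNNGAA) at 116 to 108 bases. Both strands were searched, and of all 32851 promoters listed there 3.9% held the kappaB consensus, 7.02% the STAT motif and 2.98% the ISRE. Of the 9740 promoters of genes tested, the shares were 4.73%, 5.43% and 2.48%. Of the 15 genes named as raised, 13 matched the table, with 14 promoters, of which 3 held the kappaB consensus, 3 the STAT motif and 2 the ISRE. The 3 promoters with the STAT motif belong to 2 genes, Steap4 and Ctla2a, and the 2 overlapping windows of Ctla2a each hold 1 match, of the same letters. Of the 15 genes named as lowered, 13 matched, and these letters are in 0 of their 13 windows. A match describes letters and is not a measured site.

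Cxcl1, a chemokine that attracts neutrophils, had 7.45, 7.96, 29.3 and 6.09 CPM after LPS and 1 count in all 6 steady-state libraries, a ratio of 85.1 (95% interval 14.7 to 3416), covering counting error only. LPS library 2-1 stood above the other 3, and the fitted log2 ratio of 5.56 (adjusted p = 4.96e-06, edgeR) was 4.67 without it and 6.77 without steady-state library 2-1. Fcgr4, an activating receptor for immunoglobulin G, had 13.3, 16.8, 15.4 and 28.9 CPM after LPS and 2 counts at steady state, both in library 2-1, a ratio of 51.5 (95% interval 13.8 to 433). Its fitted log2 ratio was 5.30, and 7.17 without that library. Steap4, a metalloreductase, had 17.4, 13.3, 16.1 and 24.3 CPM after LPS and 3 counts at steady state, a ratio of 33.9 (95% interval 11.1 to 168). In all 3 genes the groups did not overlap, which was part of the rule by which the 30 genes were named and held for 10.7% of all genes tested.

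**Figure D1:**
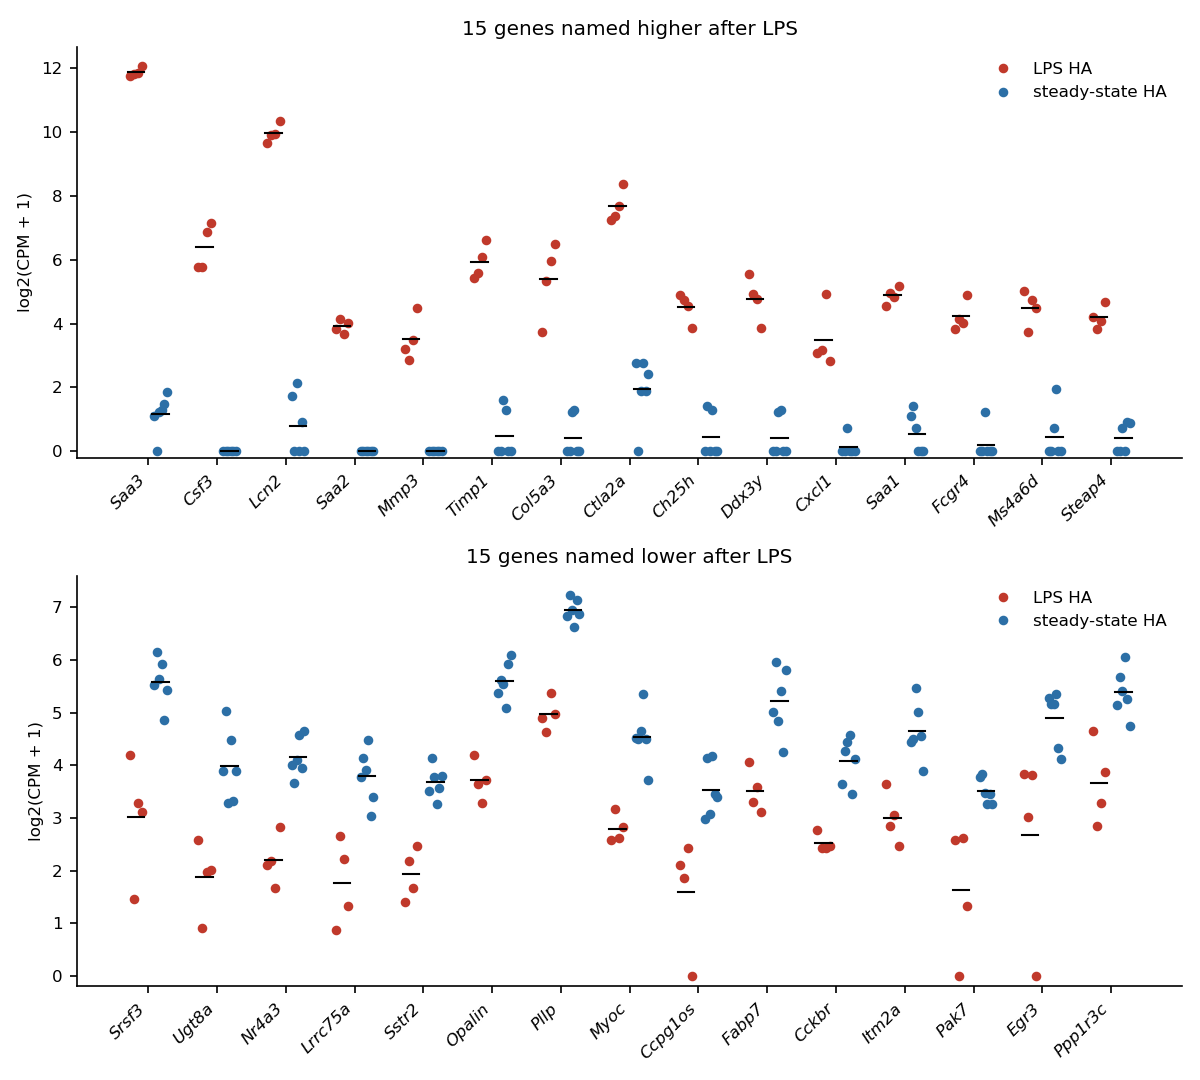
Level of the 15 genes named as raised and the 15 named as lowered, as log2(CPM + 1), with 1 point per HA library, LPS left of steady state, and a bar at each group mean. Saa3 and Lcn2 reach the highest levels after LPS among the raised genes, Csf3 is at 0 in all 6 steady-state libraries, and Pllp has the highest steady-state level among the lowered genes.

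The other genes named as raised act in matrix turnover, lipid chemistry and myeloid cells. Timp1, an inhibitor of metalloproteases, had 42.2, 46.9, 66.6 and 97.4 CPM after LPS, against 0, 0 and 2.02 CPM at steady state (log2 6.29 ± 0.44, adjusted p = 3.75e-13, edgeR; 7.47 without steady-state library 2-1). Ctla2a, a cathepsin L inhibitor gene in mouse, had 152, 166, 206 and 333 CPM after LPS, against 0, 3.52 and 5.76 CPM at steady state (log2 5.85 ± 0.28, adjusted p = 5.73e-18). For both, every LPS library lay far above every steady-state library, and a lack of overlap was part of the rule that named them. Mmp3, stromelysin 1, had 8.28, 6.19, 10.2 and 21.3 CPM after LPS and 0 counts at steady state, and was at least 20.6-fold higher (adjusted p = 2.99e-06). Col5a3, a fibrillar collagen chain, had 12.4, 39.8, 61.4 and 88.3 CPM after LPS and 3 counts at steady state, a ratio of 92.5 (95% interval 31.2 to 452), with a fitted log2 ratio of 6.29, and 7.13 without steady-state library 2-1. LPS library 1-1 held the lowest of its LPS values. Ch25h, cholesterol 25-hydroxylase, had 28.99, 25.6, 22.7 and 13.7 CPM after LPS and 2 counts at steady state, a ratio of 71.4 (95% interval 19.3 to 597), with a fitted log2 ratio of 5.66, and 6.25 without steady-state library 1-2. Ms4a6d, a membrane protein gene of myeloid cells, had a ratio of 46.2 (95% interval 15.4 to 228) over 3 steady-state counts, with a fitted log2 ratio of 5.19, and 6.22 without steady-state library 2-2. Saa1 had a ratio of 55.8 (95% interval 18.7 to 275) over 3 steady-state counts, and Saa2, with 0 counts at steady state, was at least 27.9-fold higher. Saa1 and Saa2 are near-identical copies, so the split of reads between them is uncertain. Ddx3y, the sex-linked gene above, fell under the same naming rule, with a ratio of 60.9 (95% interval 20.4 to 299), and a fitted log2 ratio of 5.57, or 6.41 without steady-state library 2-1. In IgG, Timp1 rose by log2 6.78 and Ctla2a by 5.30. Mmp3 and Ch25h had ratios of 92.9 (95% interval 15.6 to 3775) and 32.8 (10.4 to 166) in IgG. Ms4a6d had one of 30.5 (7.55 to 267) there.

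Acute-phase and secreted defence genes rose in 10 of 10 tested members, with a median log2 ratio of 4.32, against -0.02 over all genes tested. Of the 25 members of this list, 12 were listed and 10 tested. Saa1, Saa2, Saa3 and Lcn2, and possibly other members with low levels at steady state, passed the filter on low counts only through libraries made after LPS. The count is therefore a description and no test of the list. Beyond the serum amyloid genes and Lcn2, Serpina3n, a serine protease inhibitor of reactive glia, had 144, 179, 182 and 221 CPM after LPS, against 3.46, 6.20 and 18.6 CPM at steady state (log2 4.45 ± 0.25, adjusted p = 1.58e-15, edgeR). Lrg1, a secreted glycoprotein gene of inflamed vessels, had 128, 134, 139 and 92.8 CPM after LPS, against 3.46, 6.65 and 8.74 CPM at steady state (log2 4.19 ± 0.24, adjusted p = 1.7e-15). The groups were apart for both genes. Hp, haptoglobin, rose by log2 3.08 (3.90 without steady-state library 2-1), Cp, the ferroxidase ceruloplasmin, by 3.23, Pglyrp1, a peptidoglycan-binding protein, by 3.05, and Lbp, the LPS-binding protein, by 2.84. In IgG, 10 of 10 members rose as well (6.92% of all genes rose in IgG), with a median of 3.49, and the difference between the HA and IgG responses passed in 0 of them with a higher response in HA (1.64% of all genes tested) and in 0 with a lower one (1.59%). Saa3 had 346 to 802 CPM after LPS in IgG, below each of its LPS HA libraries, and its ratio of HA over IgG after LPS was log2 2.78 (adjusted p = 2.8e-09, edgeR).

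Genes of LPS sensing rose in 7 of 23 tested members and fell in 0, with a median of 0.42 (30.4% called, against 17.5% of all genes tested). Cd14, the LPS co-receptor, had 34.8, 22.99, 35.1 and 16.7 CPM after LPS, against 1.73, 4.75 and 6.67 CPM at steady state (log2 2.60 ± 0.35, adjusted p = 9.43e-07, edgeR). All LPS libraries lay above all steady-state libraries. The adaptor gene Myd88 rose by log2 1.75. Irf3, the transcription factor of the interferon arm, had a log2 ratio of 0.92, which did not pass without the LPS libraries of first number 2 (0.68, adjusted p = 0.0594). In that fit 3 of 24 members of the list rose.

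NF-kB targets, cytokines and feedback genes rose in 18 of 26 members and fell in 0, with a median of 1.48. Ccl5, a chemokine for T cells and monocytes, had 176, 130, 170 and 167 CPM after LPS, against 0, 3.03 and 14.8 CPM at steady state (log2 4.73 ± 0.47, adjusted p = 7.83e-07, edgeR; 5.60 without steady-state library 2-1). Steady-state libraries 2-1 and 2-2 held the highest of the low values. Bcl3, a nuclear regulator of NF-kB, rose by log2 4.001 (4.62 without steady-state library 3-2), Icam1, a leukocyte adhesion molecule, by 3.98, and Nfkbia, the inhibitor of NF-kB, by 0.72. Cxcl10, an interferon-driven chemokine gene, had a log2 ratio of 3.30, which did not pass when libraries of a first number were summed (3.37, adjusted p = 0.136) or without the LPS libraries of first number 2 (2.74, adjusted p = 0.0942). In IgG 17 of the 26 list members rose and 0 fell, with a median of 1.47. The difference between the HA and IgG responses passed in 0 of them in either direction.

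Of the cytokine receptor and JAK-STAT3 genes, 5 of 19 rose and 0 fell (26.3% called, against 17.5% of all genes tested). Without the LPS libraries of first number 2, 3 of 21 rose. Socs3, the feedback inhibitor of this pathway, had 27.3, 23.9, 40.2 and 47.2 CPM after LPS, against 1.67, 5.85 and 10.4 CPM at steady state (log2 2.51 ± 0.30, adjusted p = 1.27e-07, edgeR), with no overlap. Stat3 itself rose by log2 1.43 and the TNF receptor gene Tnfrsf1a by 1.95. Ifngr1, an interferon-gamma receptor chain, and Tyk2, a receptor-associated kinase, had log2 ratios of 1.14 and 1.01. Neither passed without the LPS libraries of first number 2 (Ifngr1 1.04, adjusted p = 0.0665; Tyk2 0.98, adjusted p = 0.0801).

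Interferon-stimulated genes rose in 28 of 33 members and fell in 0, with a median of 1.51. Ifitm3, which restricts virus entry from endosomes, had 121, 188, 164 and 151 CPM after LPS, against 13.6, 20.3 and 28.6 CPM at steady state (log2 2.96 ± 0.22, adjusted p = 1.23e-12, edgeR). The groups were apart. Its relatives Ifitm1 and Ifitm2 rose by log2 3.14 and 2.69, and Zbp1, a nucleic acid sensor, by 4.56 (6.24 without steady-state library 2-1). The Ifitm genes are similar copies, so reads may be shared among them. Isg15, a ubiquitin-like modifier, had 95.3, 73.4, 144 and 158 CPM after LPS, against 8.34, 14.4 and 45.7 CPM at steady state (log2 2.42 ± 0.40, adjusted p = 0.000316; adjusted p = 0.0653 when libraries of a first number were summed). Its highest steady-state values lay in libraries 2-1 and 2-2. Gbp2, an interferon-induced GTPase, rose by log2 3.79 (3.09 without LPS library 2-1, 4.48 without steady-state library 2-1). With the LPS libraries of first number 2 left out, 14 of 34 interferon-stimulated genes rose. In IgG 21 of the 33 rose and 0 fell, with a median of 1.53 (6.92% of all genes rose in IgG). The difference between the HA and IgG responses passed in 0 members in either direction.

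Of the antigen presentation genes, class I and class II members were counted apart. Of 11 class I members, 6 rose and 0 fell, with a median of 0.91. Tap1, a subunit of the peptide transporter, had 16.6, 21.2, 49.7 and 41.1 CPM after LPS, against 1.67, 5.67 and 10.02 CPM at steady state (log2 2.45 ± 0.36, adjusted p = 6.18e-06, edgeR), with the higher LPS values in libraries 2-1 and 2-2. Tap2, its partner, rose by log2 1.89. The heavy chain genes H2-K1, H2-T23 and H2-D1, whose reads can be shared with other copies of the family, had log2 ratios of 1.87, 1.53 and 1.38. Without the LPS libraries of first number 2, H2-K1 (1.61, adjusted p = 0.0974) and H2-T23 (1.07, adjusted p = 0.0536) did not pass, and H2-D1 did not pass when libraries of a first number were summed (1.40, adjusted p = 0.0502). Tapbp, the loading factor tapasin, had a log2 ratio of 0.91 and did not pass without LPS library 2-1 (0.77, adjusted p = 0.0529). The members that did not pass were B2m (0.44), Tapbpl (0.42), Pdia3 (-0.26), Calr (-0.09) and Canx (-0.13). The count of class I members that rose was 3 without these libraries. In IgG 4 of the 11 class I members rose and 1 fell, with a median of 0.83. The difference between the HA and IgG responses passed in 1 of them, with a higher response in HA.

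Of 10 immunoproteasome and proteasome activator genes, 5 rose. The catalytic subunit Psmb8 rose by log2 1.81 and the activator subunit Psme1 by 0.81. Psmb9 and Psmb10, also catalytic subunits, had log2 ratios of 1.14 and 0.44, and the activator subunit Psme2 one of 0.84. Psmb9 did not pass in 6 of the fits that each left out 1 HA library (adjusted p up to 0.148), nor Psmb10 without LPS library 2-2 (0.38, adjusted p = 0.0564), nor Psme2 without the LPS libraries of first number 2 (0.38, adjusted p = 0.335). The members that did not pass were Psme3 (-0.03), Pomp (-0.34), Psmb5 (-0.14), Psmb6 (0.04) and Psmb7 (-0.13). 2 members rose without these libraries.

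Of 6 class II members, 3 fell and 1 rose. H2-Ab1, a chain of the I-A molecule, had 8.28, 4.42, 5.12 and 3.04 CPM after LPS, against 4.61, 13.9 and 171 CPM at steady state (log2 -3.04 ± 0.95, adjusted p = 0.037, edgeR). The groups overlapped, and the highest values lay in steady-state libraries 2-1 and 2-2. In the fits without the LPS libraries of first number 1 or of first number 2, 0 members of the list fell. Without the 2 steady-state libraries, H2-Ab1 was at -0.99, adjusted p = 0.173, H2-Aa, its partner chain, at -0.96, adjusted p = 0.249 in place of -2.53, and H2-Eb1, of the I-E molecule, at -1.34, adjusted p = 0.161 in place of -2.30. Without steady-state library 2-1 alone, the log2 ratios were -1.51 for H2-Ab1, -1.58 for H2-Aa and -1.68 for H2-Eb1. H2-Ab1, H2-Aa and H2-Eb1 missed the threshold in 4, 6 and 5 of the fits that each left out 1 HA library. Ctss, the cathepsin that trims the invariant chain, had a log2 ratio of 1.02 and did not pass without LPS library 2-1 (0.91, adjusted p = 0.0551). The members that did not pass were Cd74 (-0.80) and H2-DMa (-0.17).

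Complement genes rose in 11 of 15 members and fell in 0, with a median of 1.26. C3, the central component, had 15.7, 22.1, 22.7 and 36.5 CPM after LPS, against 0, 0.576 and 2.72 CPM at steady state (log2 4.19 ± 0.45, adjusted p = 9.05e-09, edgeR). C1qa, a C1q chain made by microglia and macrophages, had 972, 760, 880 and 1086 CPM after LPS, against 297, 337 and 521 CPM at steady state (log2 1.26 ± 0.17, adjusted p = 2.58e-06). The groups were apart for both genes, and steady-state libraries 2-1 and 2-2 held the highest steady-state values of C1qa. Cfb, factor B of the alternative pathway, rose by log2 4.66 (5.63 without steady-state library 2-1), and Serping1, the C1 inhibitor gene, and C4b, of the classical pathway, by 2.42 and 2.42. C1qa was higher in HA than in IgG after LPS (log2 1.32, adjusted p = 5.07e-05). C3 had a ratio of HA over IgG after LPS of log2 0.80, which did not pass (adjusted p = 0.165). In IgG 8 of the 15 complement genes rose and 0 fell, with a median of 0.88. The difference between the HA and IgG responses passed in 0 of them in either direction.

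**Figure D2:**
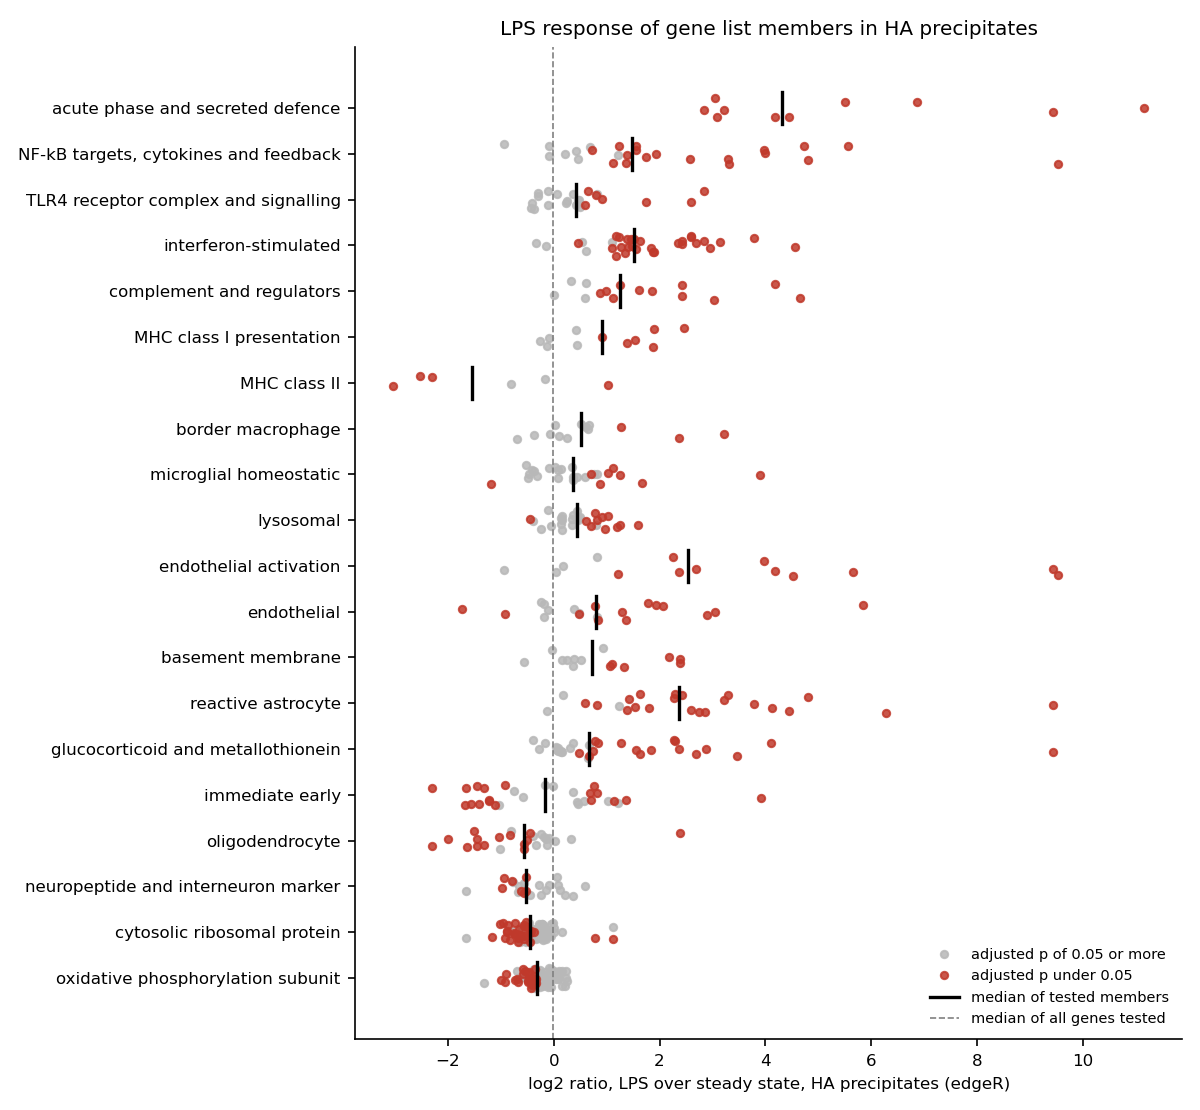
Log2 ratio of LPS over steady state in HA for each tested member of the gene lists, with members under an adjusted p of 0.05 in red and others in grey, a bar at each list's median and a dashed line at the median of all genes tested. The acute-phase, endothelial activation and reactive astrocyte lists have medians of 4.32, 2.53 and 2.36, and the class II and oligodendrocyte lists have medians of -1.55 and -0.56.

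Border macrophage and microglial genes were each counted as a list. Of 13 border macrophage genes, 3 rose and 0 fell (23.1% called, against 17.5% of all genes tested). Those that rose were Cp, which astrocytes also make (log2 3.23), Ms4a6c, a myeloid membrane protein gene (2.37), and Txnip, a thioredoxin-interacting protein gene (1.28). With the LPS libraries of first number 1 left out, 5 of 15 rose. Without the steady-state libraries of first number 2, Cp was at 3.90 and Ms4a6c at 3.07. In HA, microglial genes rose in 7 of 26 members and fell in 1 (30.8% called, against 17.5% of all genes tested). Gpr84, a fatty acid receptor of activated myeloid cells, rose by log2 3.91, and Fcer1g, an Fc receptor adaptor, by 1.67. Ltc4s, leukotriene C4 synthase, had a log2 ratio of -1.19, which did not pass without the LPS libraries of first number 2 (-0.93, adjusted p = 0.0563). Tmem119, a microglial membrane protein gene, had 51.4, 45.98, 52.7 and 51.7 CPM after LPS, inside its steady-state range of 38.1 to 70.2 CPM (log2 0.02, adjusted p = 0.96, edgeR). P2ry12, a purine receptor of resting microglia, had 2.48, 0, 0 and 0 CPM after LPS and 1.81 to 7.16 CPM at steady state and was not tested. In IgG 3 of the 13 border macrophage genes rose and 1 fell, with a median of 0.58. Of the 26 microglial genes, 7 rose and 6 fell in IgG, with a median of 0.01. Of all genes, 6.92% rose and 6.44% fell in IgG. The difference between the HA and IgG responses passed in 0 members of either list.

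Disease-associated microglial genes rose in 7 of 21 members and fell in 0 (2 without the steady-state libraries of first number 3). Spp1, osteopontin, had 86.97, 85.8, 87.8 and 24.3 CPM after LPS, against 9.51, 11.9 and 26.7 CPM at steady state (log2 2.41 ± 0.29, adjusted p = 1.69e-07, edgeR). LPS library 2-2 lay inside the steady-state range and the other 3 above it. Lysosomal genes rose in 10 of 29 members, among them the cathepsin genes Ctsz (log2 1.26) and Ctsl (1.20). 1 member had a lower level, Hexa, a beta-hexosaminidase chain (log2 -0.46), which did not pass in 7 of the fits that each left out 1 HA library (adjusted p up to 0.146). In IgG 8 of the 21 disease-associated genes rose and 2 fell, and 3 of the 29 lysosomal genes rose and 3 fell. The difference between the HA and IgG responses passed in 2 lysosomal genes, higher in HA. It passed in 1 disease-associated gene with a higher and in 1 with a lower response in HA.

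Genes of blood leukocytes were counted next. Of 6 tested neutrophil genes, Lcn2 and S100a9 passed. The number that passed was 5 of 8 and 1 of 6 without the LPS libraries of first number 1 and of first number 2. S100a9, a calcium-binding protein of neutrophils, had 18.2, 29.2, 48.3 and 107 CPM after LPS, against 2.59, 5.63 and 35.8 CPM at steady state (log2 2.04 ± 0.64, adjusted p = 0.0362, edgeR). The groups overlapped. It did not pass in 6 of the fits that each left out 1 HA library (1.48, adjusted p = 0.146 without LPS library 2-2), and it was at 2.65 without steady-state library 2-2. Mmp9, gelatinase B, had 62.9, 47.7, 79.01 and 88.3 CPM after LPS, against 12.7, 38.00 and 336 CPM at steady state, where libraries 2-1 and 2-2 stood above the others. Its log2 ratio was -0.40 (adjusted p = 0.717), and without these 2 steady-state libraries it was 1.28 (adjusted p = 0.00456). The neutrophil members that did not pass were S100a8 (1.28), Camp (-0.20), Mmp9 (-0.40) and Hdc (0.38), and the summed neutrophil markers had 42.4 to 167 CPM after LPS and 9.51 to 75.9 CPM at steady state. The 3 tested monocyte genes did not pass: S100a6 (0.04), Fn1 (0.16) and Lgals3 (0.92). Without the steady-state libraries of first number 2, 1 of 3 did. The 1 lymphocyte gene tested, Cd4, a T cell co-receptor, did not pass (log2 -0.04, adjusted p = 0.946).

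More endothelial genes passed upward than downward. In these bulk samples, fewer cells of a type and less RNA per cell cannot be told apart. Of 20 endothelial genes, 11 rose and 2 fell, with a median of 0.80. Cldn5, claudin 5 of the blood-brain barrier, had 132, 104, 97.3 and 196 CPM after LPS, against 20.8, 38.8 and 49.8 CPM at steady state (log2 1.77 ± 0.20, adjusted p = 2.96e-08, edgeR), without overlap. Cdh5, the endothelial cadherin, had a log2 ratio of 1.94, which did not pass without the LPS libraries of first number 2 (1.41, adjusted p = 0.178). Pecam1, an adhesion molecule of endothelial junctions, had one of 1.37, which did not pass without LPS library 1-2 (1.22, adjusted p = 0.0994) or 2-2 (1.21, adjusted p = 0.0817). Itm2a, a membrane protein gene, fell by log2 1.74, and Pltp, a phospholipid transfer protein gene, had a log2 ratio of -0.93, which did not pass without the LPS libraries of first number 2 (-0.89, adjusted p = 0.0979). Without the same libraries 7 endothelial genes rose, and without the steady-state libraries of first number 1 the count was 7. The 6 summed endothelial markers had 239 to 307 CPM after LPS and 57.1 to 102 CPM at steady state in HA, and 140 to 160 CPM after LPS and 46.5 to 78.9 CPM at steady state in IgG. Their part in the values of the vessel genes was not tested. Endothelial activation genes rose in 10 of 14 members, with a median of 2.53. Besides Lcn2, Csf3, Ch25h, Lrg1 and Icam1 they held Angptl4, a lipase inhibitor (log2 2.70), and Adamts1, a matrix protease (2.37). In IgG 10 of the 14 endothelial activation genes rose and 1 fell, with a median of 2.71. Of the 20 endothelial genes, 7 rose and 3 fell in IgG, with a median of 0.47. The difference between the HA and IgG responses passed in 0 members of either list.

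Basement membrane genes rose in 6 of 14 members and fell in 0. Col4a1, a type IV collagen chain, had 46.4, 72.5, 59.99 and 119 CPM after LPS, against 8.06, 16.6 and 20.8 CPM at steady state (log2 2.19 ± 0.28, adjusted p = 1.41e-06, edgeR). Col4a2, its partner chain, had 36.4, 75.2, 47.6 and 54.8 CPM after LPS, against 6.34, 9.33 and 14.8 CPM at steady state (log2 2.39 ± 0.24, adjusted p = 3.34e-09). The groups were apart for both. In IgG, Col4a1 had 121 to 225 CPM after LPS and 5.67 to 25.1 CPM at steady state, and Col4a2 had 21.9 to 27.6 CPM after LPS and 10.3 to 15.3 CPM at steady state. After LPS, Col4a1 thus lay higher in IgG than in HA and Col4a2 lower. Of the laminin chains, Lama5 rose by log2 2.39 (3.28 without the steady-state libraries of first number 3) and Lamc1 had a log2 ratio of 1.06, which did not pass without the LPS libraries of first number 1 (1.05, adjusted p = 0.0898) or of first number 2 (1.07, adjusted p = 0.122). Col18a1, another collagen chain, had a log2 ratio of 1.10, which did not pass without the LPS libraries of first number 2 (0.73, adjusted p = 0.253). Among matrix protease genes, 6 of 17 rose and 2 fell (47.1% called, against 17.5% of all genes tested). Those that fell were Mmp15 (log2 -0.68) and Mmp17 (-0.47), both membrane-bound. Mmp15 did not pass without LPS library 1-2 (-0.62, adjusted p = 0.0598), nor Mmp17 in 7 of the fits that each left out 1 HA library (-0.37, adjusted p = 0.139 without LPS library 2-2), and 0 members of the list fell without the LPS libraries of first number 2.

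Of 7 mural cell genes, 1 rose and 3 fell. Pdgfrb, the pericyte receptor for platelet-derived growth factor, had 21.5, 30.9, 22.7 and 33.5 CPM after LPS, against 2.30, 7.49 and 9.06 CPM at steady state (log2 1.98 ± 0.35, adjusted p = 9.97e-05, edgeR), with no overlap. Myl9, a smooth muscle myosin light chain, fell by log2 1.14. Vtn, vitronectin, and Cspg4, the NG2 proteoglycan, had log2 ratios of -0.66 and -0.83. Vtn did not pass without the steady-state libraries of first number 2 (-0.46, adjusted p = 0.0735), nor Cspg4 without LPS library 2-2 (-0.70, adjusted p = 0.079) or steady-state library 2-2 (-0.64, adjusted p = 0.0749). Without the LPS libraries of first number 2, 1 of 9 mural genes fell. The members that did not pass were Tagln (-0.52), Higd1b (0.02) and Notch3 (0.96). Fibroblast genes rose in 6 of 14 members, with the proteoglycan gene Dcn at log2 1.44, and 1 fell, Fmod, fibromodulin (-1.53). Choroid plexus genes gave 1 call upward and 1 downward among 9 members, the water channel gene Aqp1 (log2 0.88) and Enpp2, autotaxin (-0.56). Neither passed without LPS library 2-2 (Aqp1 0.70, adjusted p = 0.121; Enpp2 -0.40, adjusted p = 0.165), and the share called among the choroid plexus genes is near that of all genes. The members that did not pass were Ttr (0.05), Folr1 (0.41), Kl (-0.05), 1500015O10Rik (-0.03), Foxj1 (0.35), Ccdc153 (-0.15) and Rarres2 (-0.14).

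Reactive astrocyte genes rose in 21 of 24 members and fell in 0, with a median of 2.36, and this list shares Lcn2, Serpina3n, Timp1, Steap4 and Cp with lists above. Gfap, the astrocyte intermediate filament, had 627, 775, 875 and 1117 CPM after LPS, against 110, 155 and 280 CPM at steady state (log2 2.30 ± 0.20, adjusted p = 4.78e-09, edgeR). All LPS libraries lay above all steady-state libraries, and in IgG Gfap had 668 to 903 CPM after LPS and 108 to 173 CPM at steady state. Its ratio of HA over IgG did not pass after LPS (log2 0.04, adjusted p = 0.927) or at steady state (0.25, adjusted p = 0.326). Aspg, an asparaginase gene, rose by log2 4.13. Among general astrocyte genes, 7 of 26 rose, such as the growth factor receptor gene Fgfr3 (log2 0.92), and 3 fell. These were Mfge8, a bridging protein for phagocytosis (-0.80), Ppp1r3c, a glycogen-targeting phosphatase subunit (-1.66), and Acsl6, an acyl-CoA synthetase (-0.79). Without the LPS libraries of first number 2, Ppp1r3c (-1.43, adjusted p = 0.104) and Acsl6 (-0.45, adjusted p = 0.282) did not pass, and 4 general astrocyte genes rose and 1 fell. Without the steady-state libraries of first number 3, 8 rose and 6 fell. The 5 summed astrocyte markers had 975 to 1299 CPM after LPS and 316 to 550 CPM at steady state in HA, and their part in these values was not tested. In IgG 20 of the 24 reactive astrocyte genes rose and 0 fell, with a median of 1.81. The difference between the HA and IgG responses passed in 0 of these 24 in either direction.

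Glucocorticoid-induced and metallothionein genes rose in 17 of 31 members and fell in 0, with a median of 0.67. Mt1, a metal-binding protein gene, had 9715, 10475, 11551 and 15717 CPM after LPS, against 1362, 2459 and 3119 CPM at steady state (log2 2.30 ± 0.17, adjusted p = 1.21e-10, edgeR), and Mt2 rose by log2 2.38. No LPS library overlapped steady state in Mt1. Plin4, a lipid droplet protein gene, rose by log2 4.10, the kinase gene Map3k6 by 2.88, and Cdkn1a, the cell cycle inhibitor p21, by 2.27. The glucocorticoid target Fkbp5 rose by 1.63, and Tsc22d3, another, had a log2 ratio of 0.47, which did not pass without the LPS libraries of first number 1 (0.26, adjusted p = 0.352). Of the iron and heme genes, 6 of 16 rose, and besides Lcn2, Steap4, Cp and Hp these were Slc11a1, a phagosomal metal transporter (1.51), and Hmox1, heme oxygenase 1 (1.17). Slc11a1 (1.37, adjusted p = 0.11) and Hmox1 (1.07, adjusted p = 0.157) did not pass when the LPS libraries of first number 2 were left out. In IgG 15 of the 31 glucocorticoid and metallothionein genes rose and 0 fell, with a median of 0.66 (6.92% of all genes rose in IgG). The difference between the HA and IgG responses passed in 1 of them, with a higher response in HA. Of the 16 iron and heme genes, 8 rose and 1 fell in IgG, and the difference passed in 2, lower in HA.

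Genes of myelin were among those named as lowered. Pllp, plasmolipin of myelin, had 28.99, 23.9, 40.2 and 30.4 CPM after LPS, against 97.4, 120 and 150 CPM at steady state (log2 -1.98 ± 0.19, adjusted p = 5.52e-10, edgeR). Opalin, an oligodendrocyte membrane glycoprotein, had 17.4, 11.5, 8.78 and 12.2 CPM after LPS, against 32.9, 47.04 and 67.5 CPM at steady state (log2 -1.99 ± 0.26, adjusted p = 4.75e-07). Ugt8a, which makes galactosylceramide of myelin, had 4.97, 0.884, 2.93 and 3.04 CPM after LPS, against 8.74, 13.8 and 31.7 CPM at steady state (log2 -2.31 ± 0.50, adjusted p = 0.00134). For these 3 genes no LPS library reached the lowest steady-state library, which the rule that named them required. In the oligodendrocyte list 13 of 25 members fell, with a median of -0.56, and Car2, carbonic anhydrase 2, fell by log2 1.45. The 1 member that rose was Apod, the lipid carrier apolipoprotein D, with 808, 1119, 927 and 1484 CPM after LPS, against 176, 204 and 250 CPM at steady state (log2 2.39 ± 0.15, adjusted p = 8.62e-15). Without the LPS libraries of first number 2, 8 members fell. In IgG 11 members fell (6.44% of all genes fell in IgG), with a median of -0.54. Of 14 precursor genes 4 fell: Gpr17, a receptor of differentiating precursors (log2 -1.49), C1ql1 (-0.99), Cspg4 and the transcription factor gene Olig1 (-0.50). Cspg4 did not pass without LPS library 2-2, as given above, and Olig1 not without the LPS libraries of first number 1 (-0.47, adjusted p = 0.0553).

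Immediate early genes split in direction, with 11 of 29 members that fell and 7 that rose. Nr4a3, a nuclear receptor, had 3.31, 3.54, 2.19 and 6.09 CPM after LPS, against 11.7, 15.6 and 24.2 CPM at steady state (log2 -2.29 ± 0.35, adjusted p = 8.44e-06, edgeR). Egr1, a zinc finger factor, had 51.4, 57.5, 62.9 and 71.5 CPM after LPS, against 112, 159 and 185 CPM at steady state (log2 -1.32 ± 0.18, adjusted p = 8.46e-07). Every LPS library lay below every steady-state library for both, which for Nr4a3 was part of the rule that named it. Egr3 and Nr4a1, relatives of these factors, fell by log2 1.67 and 1.41. Fos had a log2 ratio of -1.23, which did not pass without LPS library 1-2 (-0.92, adjusted p = 0.118), LPS library 2-2 (-1.05, adjusted p = 0.0749) or steady-state library 2-1 (-1.001, adjusted p = 0.0808). Those that rose included Maff, a small Maf factor (log2 3.91), Ier3, also an NF-kB target (1.36), and the transcription factor genes Klf6 (1.14) and Jun (0.71). Without the LPS libraries of first number 2, 3 members rose and Klf6 (0.90, adjusted p = 0.061) and Jun (0.57, adjusted p = 0.16) did not pass, and 7 fell without those of first number 1, as did 7 without the steady-state libraries of first number 2. In IgG 9 of the 29 immediate early genes rose and 5 fell, with a median of 0.11. The difference between the HA and IgG responses passed in 0 of them in either direction.

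Of the other genes named as lowered, Srsf3, a splicing factor, had 17.4, 1.77, 8.78 and 7.61 CPM after LPS, against 28.1, 47.00 and 70.02 CPM at steady state (log2 -2.39 ± 0.38, adjusted p = 3.72e-05, edgeR; -2.97 without LPS library 1-1). The groups did not overlap, which the naming rule required, and LPS library 1-1 was the highest of its group. Sstr2, a somatostatin receptor, fell by log2 2.06, Cckbr, a cholecystokinin receptor, by 1.76, and Lrrc75a by 2.10. Myoc, myocilin, fell by log2 1.93, Fabp7, a fatty acid carrier of astrocytes, by 1.77, and Ccpg1os by 1.82. Pak7, a neuronal kinase gene, had a log2 ratio of -1.68, which did not pass without LPS library 1-2 (-1.25, adjusted p = 0.0597), where it had 0 counts. Neuropeptide and interneuron genes fell in 7 of 23 members and rose in 0, and 3 of 25 fell without the LPS libraries of first number 2. Vgf, a neuropeptide precursor, had 234, 204, 236 and 192 CPM after LPS, against 318, 416 and 522 CPM at steady state (log2 -0.94 ± 0.14, adjusted p = 7.13e-06), with no overlap. Cort and Cartpt, both peptide precursors, fell by log2 0.98 and 0.78.

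In the neuron list 2 of 30 members passed upward and 3 downward, no larger a share than the 17.5% of all genes that passed (9.46% upward, 8.0% downward). The counts were 1 upward and 0 downward without the LPS libraries of first number 2, and 3 and 6 without the steady-state libraries of first number 3. The glutamate receptor gene Gria1 had a log2 ratio of 0.52 and the kinase gene Camk2a one of 0.46. The vesicular transporter gene Slc17a6 stood at -1.28, the growth cone gene Stmn2 at -0.75 and the neurofilament gene Nefm at -0.59. Each of these 5 calls was lost in some fit with libraries left out. Without LPS library 1-2, Gria1 (0.40, adjusted p = 0.0856) and Slc17a6 (-0.997, adjusted p = 0.0906) did not pass. Camk2a did not pass in 6 of the fits that each left out 1 HA library (0.33, adjusted p = 0.179 without LPS library 2-1), nor Nefm in 6 (-0.44, adjusted p = 0.0856 without steady-state library 2-2), nor Stmn2 without the LPS libraries of first number 2 (-0.58, adjusted p = 0.116).

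Ribosomal protein and respiratory chain genes had more calls downward than upward. Of 75 cytosolic ribosomal protein genes, 27 fell and 2 rose, with a median of -0.44. Rpl13a, of the large subunit, had 2596, 2314, 2236 and 2228 CPM after LPS, against 2849, 3936 and 4589 CPM at steady state (log2 -0.72 ± 0.13, adjusted p = 0.00015, edgeR), without overlap. Rpl7 and Rpl3, of the large subunit, fell by log2 1.01 and 0.83, and Fau, of the small subunit, by 0.89. Those that rose were Rps15a (log2 1.13) and Rps27l (0.79), and Rps27l did not pass without LPS library 1-2 (0.74, adjusted p = 0.0507). In IgG 8 of the 75 rose and 0 fell, with a median of 0.17, against 6.92% of all genes that rose in IgG and 6.44% that fell. The difference between the HA and IgG responses passed in 16 ribosomal genes, lower in HA in each, and in 0 with a higher response in HA. The summed ribosomal transcripts had 45730 to 54349 CPM after LPS and 50757 to 82078 CPM at steady state in HA, and these ranges overlapped. Rpl22, the tagged protein, had 51.7 to 69.6 CPM after LPS and 63.1 to 81.8 CPM at steady state and did not pass (log2 -0.22, adjusted p = 0.36).

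Of 77 respiratory chain and ATP synthase subunits, 24 fell and 0 rose in HA, with a median of -0.32, and in IgG 14 fell, with a median of -0.20. The difference between the HA and IgG responses passed in 3 of them with a higher response in HA and in 2 with a lower one. Ndufb2, of complex I, had 541, 386, 434 and 283 CPM after LPS, against 593, 887 and 977 CPM at steady state (log2 -0.99 ± 0.16, adjusted p = 3.26e-05, edgeR), without overlap, and Cox8a, of complex IV, fell by log2 0.93. The summed transcripts had 34258 to 39412 CPM after LPS and 36537 to 49296 CPM at steady state. Without the LPS libraries of first number 2, 13 ribosomal and 3 respiratory chain genes fell, and without those of first number 1 the counts were 13 and 23. Without the steady-state libraries of first number 1 they were 12 and 10.

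**Figure D3:**
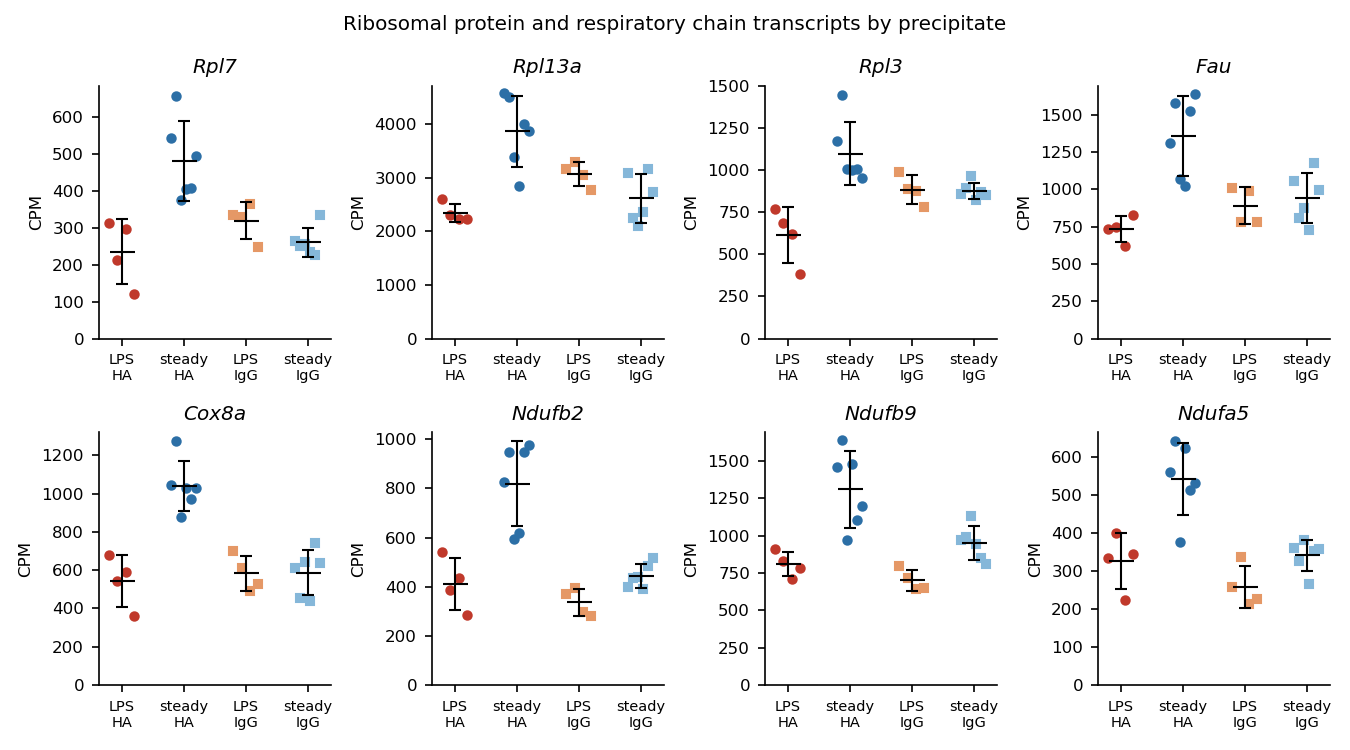
CPM of 4 ribosomal protein and 4 respiratory chain transcripts in each library of the 4 groups, with 1 point per library and bars for the mean ± SD. In Rpl7, Rpl13a, Rpl3 and Fau every LPS HA library lies below every steady-state HA library, while the IgG groups overlap.

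Chaperone genes gave 4 calls upward and 3 downward among 29, against 9.46% upward and 8.0% downward of all genes. The counts were 2 upward and 0 downward without the LPS libraries of first number 2, and 4 and 6 without the steady-state libraries of first number 3. Hspb1, a small heat shock protein, had 113, 107, 162 and 163 CPM after LPS, against 6.91, 18.6 and 26.2 CPM at steady state (log2 2.86 ± 0.23, adjusted p = 1.84e-11, edgeR), and P4hb, a protein disulfide isomerase, rose by log2 0.63. The groups were apart in Hspb1. The other 5 calls were lost in fits that left out 1 HA library. Hsp90b1 (log2 0.58) did not pass in 6 such fits (adjusted p up to 0.0953), Hsp90ab1 (0.37) in 7 (up to 0.121), Hspa5 (-0.59) in 7 (up to 0.188) and Dnajb1 (-0.63) in 5 (up to 0.128). Hsph1 (-0.52) did not pass without LPS library 2-1 (-0.46, adjusted p = 0.0633).

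The IgG precipitates, made from the same brains, measured the same contrast in background RNA and gave 1293 genes that passed (13.4%), of which 670 rose and 623 fell, 345 (3.56%) and 114 (1.18%) of them by at least 2-fold. Of the 425 genes raised at least 2-fold in HA, 224 (52.7%) also rose in IgG, which was 33.4% of the IgG genes that rose, and 398 (93.6%) had the same sign. Their median log2 ratio was 1.47 in HA and 1.03 in IgG. Of the 248 genes lowered at least 2-fold in HA, 42 (16.9%) also fell in IgG, which was 6.74% of the IgG genes that fell, and their median was -1.24 in HA and -0.17 in IgG. Across the 9680 genes, which are not independent replicates, the log2 ratios in HA and IgG had a Pearson r of 0.564 and a Spearman rho of 0.289. The difference between the responses passed in 313 genes (3.23%), 159 with a higher and 154 with a lower response in HA, and in 17 of the 425 and 32 of the 248. Scaled by library totals alone, the split was 259 higher and 136 lower. The 313 became 890 without LPS HA library 1-1, 127 without 1-2 and 187 without 2-2, 207 without steady-state HA library 1-2, and 177, 175 and 190 without LPS IgG libraries 1-1, 1-2 and 2-1.

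**Figure D4:**
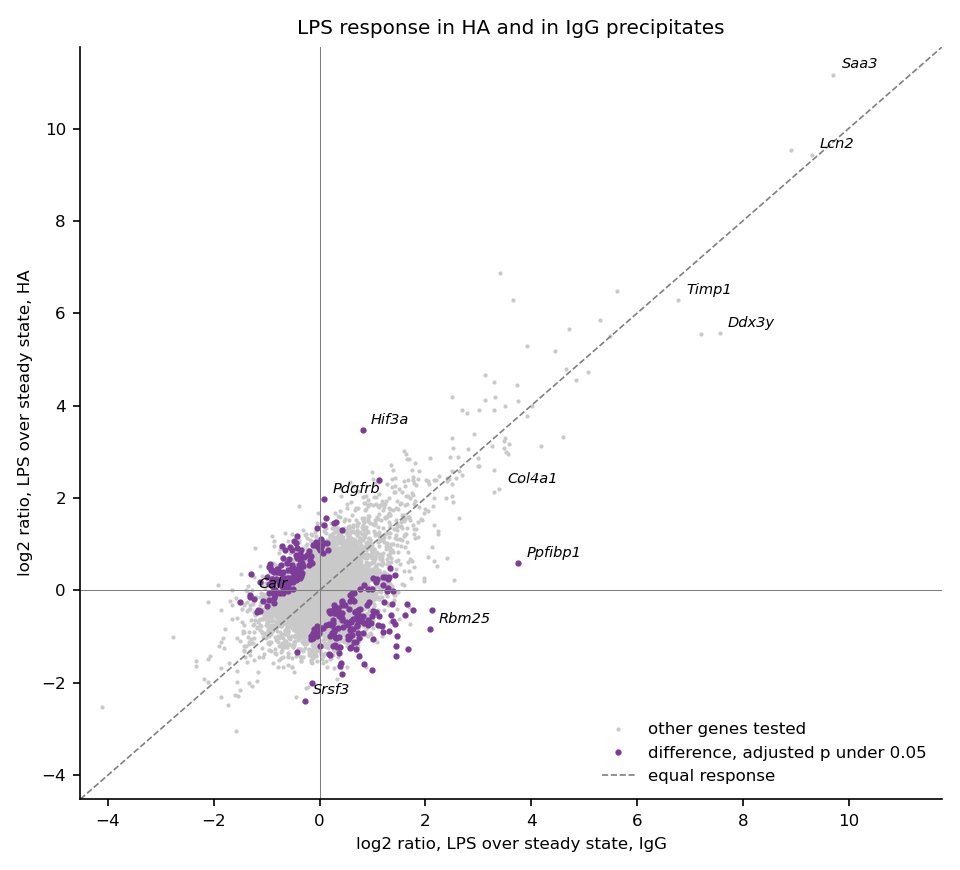
Log2 ratio of LPS over steady state in HA against that in IgG for each gene tested, with genes whose difference passed in purple and a dashed line of equal response. Saa3, Lcn2 and Timp1 lie high on both axes, while Hif3a and Pdgfrb respond more in HA and Rbm25 and Ppfibp1 more in IgG.

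Genes with a higher response in HA included Hif3a, an inhibitory subunit of the hypoxia-inducible factor family. It had 10.8, 45.1, 33.7 and 36.5 CPM after LPS and 0 to 3.63 CPM at steady state in HA, and 14.6, 2.86, 14.5 and 16.7 CPM after LPS and 6.44 to 10.3 CPM at steady state in IgG. The log2 difference of the responses was 2.66 ± 0.58 (adjusted p = 0.00973, edgeR), and in HA every LPS library lay above steady state. Plxnb1, a semaphorin receptor, had a difference of 1.61 (adjusted p = 0.0015), with a log2 ratio of 1.18 in HA and -0.43 in IgG. Txnrd2, mitochondrial thioredoxin reductase, had a difference of 1.65 and Calr, the chaperone calreticulin, one of 1.22. In HA neither passed (log2 0.36 and -0.09), and in IgG both fell (log2 -1.29 and -1.31). Abcc8, a potassium channel subunit, had a difference of 1.69, and its log2 ratio in HA of 0.97 did not pass without LPS library 2-2 (0.74, adjusted p = 0.0643). HA was also set against IgG in an edgeR fit pairing libraries of 1 state and number, chosen after the data were seen. At steady state Hif3a (log2 -1.45), Plxnb1 (-1.52), Abcc8 (-1.16), Txnrd2 (-0.96) and Calr (-0.84) stood below IgG (adjusted p under 0.05). After LPS Hif3a stood above IgG (1.14), while Plxnb1 (0.05), Abcc8 (0.50), Txnrd2 (0.78) and Calr (0.39) did not pass.

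The differences of Pdgfrb (1.89), Col4a2 (1.27), Plat, tissue plasminogen activator (1.16), Entpd3, an ectonucleotidase (1.54), and Gria1 (0.83) were higher in HA. They missed the threshold in 5, 15, 6, 12 and 1 of the 20 fits that each left out 1 of the HA and IgG libraries. Without LPS IgG library 2-2 the difference of Pdgfrb was 2.57. The response of Entpd3 in HA (log2 0.88) itself did not pass in 8 of the fits that each left out 1 HA library.

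Genes with a lower response in HA included RNA-binding proteins and the ribosomal genes above. Rbm25, a splicing regulator, had 9.94, 8.84, 3.66 and 7.61 CPM after LPS and 5.76 to 23.3 CPM at steady state in HA, and 65.6, 109, 59.2 and 34.4 CPM after LPS and 8.70 to 25.7 CPM at steady state in IgG. The difference was -2.94 ± 0.51 (adjusted p = 0.00213, edgeR). Rbm25 rose in IgG, where the groups did not overlap, and did not pass in HA. Ppfibp1, a liprin-binding scaffold gene, had 14.9, 4.42, 39.5 and 38.04 CPM after LPS and 11.5 to 20.04 CPM at steady state in HA, and 91.9, 112, 488 and 293 CPM after LPS and 15.3 to 26.4 CPM at steady state in IgG. Its difference was -3.16 (adjusted p = 0.0314; -2.57 without LPS IgG library 2-1), missing the threshold in 4 of the 20 fits. Shank1, a postsynaptic scaffold gene, had a difference of -2.55, with a rise in IgG (log2 2.12) and -0.43 in HA.

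The differences of Srsf3 (-2.11), Tmem263 (-2.44), Hnrnpa3, an RNA-binding protein (-2.66), and Ccpg1os (-2.24) missed the threshold in 7, 11, 12 and 11 of the 20 fits. Without LPS IgG library 1-1 that of Srsf3 was -1.48 and that of Tmem263 -1.86, and without LPS HA library 1-1 they were -2.69 and -3.39. Of the ribosomal and other genes, Rpl7 (-1.30), Rpl13a (-0.95), Rpl3 (-0.85), Fau (-0.81), Cox8a (-0.91) and Stmn2 (-0.98) had lower responses in HA. Cox8a is 1 of 2 respiratory chain genes with a lower response in HA, and 3 had a higher one. Rpl7, Rpl13a and Rpl3 passed in each of the 20 fits, while Fau, Cox8a and Stmn2 missed the threshold in 4, 1 and 6.

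**Figure D5:**
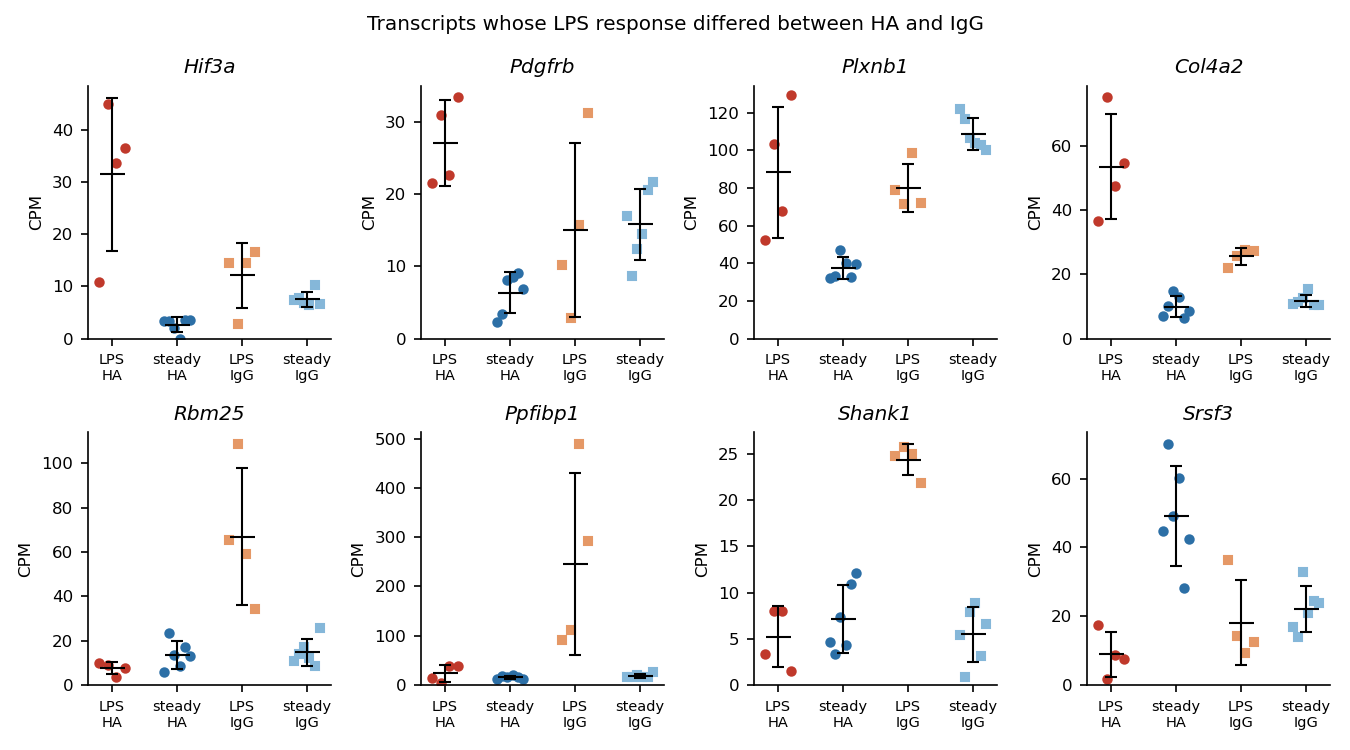
CPM in each library of the 4 groups for 8 genes whose LPS response differed between HA and IgG, with 1 point per library and bars for the mean ± SD. Hif3a, Pdgfrb, Plxnb1 and Col4a2 are higher in every LPS HA library than in every steady-state HA library, and Rbm25, Ppfibp1 and Shank1 are higher in every LPS IgG library than in every steady-state IgG library.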

How the data were processed

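RNA from anti-HA and IgG precipitates was sequenced by MARS-seq, per the labels' protocols. The authors' deposited table held raw counts per gene, and beside them the authors' log2 fold changes and adjusted p-values, used here only for the comparison with the authors' deposited table. The build was mm9, per the submitters' processing notes; the aligner, the counter and the use of molecular identifiers are not given in the sources used here. The deposited files also held 28 library columns of no sample here, which were not used. Column names give the group of a library and a pair of numbers, and no single sample.

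Counts of 20 libraries (4 LPS HA, 6 steady-state HA, 4 LPS IgG, 6 steady-state IgG) were fitted together in R 4.3.3 with edgeR 4.0.16 (filterByExpr with a minimum count of 10 and a minimum total of 15, TMM scaling, robust quasi-likelihood test with 16 residual degrees of freedom, Benjamini-Hochberg adjustment over all 9680 genes tested of 12403 listed, which kept 99.0% of counts). The threshold was an adjusted p of 0.05. CPM values are counts per 1000000 of the library size, taken over the genes tested and scaled by the TMM factor (0.972 to 1.04). The fit was tested on simulated data. Other scalings, no filter, DESeq2 1.42.0, limma 3.58.1 (voom), summed or omitted libraries and replicate blocks were tried. Ratios and floors of genes with at most 3 steady-state counts are of summed counts over summed library totals; their intervals are exact 95% intervals and, like the floor of 3 counts, cover counting error only.

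The members and lists were chosen with earlier results of these data known, so counts of list members are descriptions. A gene with few counts at steady state could pass the filter through the LPS libraries alone. Genes are named by rule: up to 15 per direction with the largest log2 ratio among genes past the threshold with a change of 2-fold or more, a mean of 10 or more counts in the group with the higher level and no overlap of CPM between groups, unnamed gene models left out; up to 4 per list with the smallest p; every member of described lists of at most 12 tested genes; the genes of the drivers and the tag; and up to 6 per direction in the difference between HA and IgG. Tyk2, Ltc4s, Hexa, Mmp15, Mmp17, Pltp, Acsl6, Camk2a, Hsp90ab1, Hspa5, Dnajb1, Rps15a, Rps27l, Cldn5, Cdh5, Pecam1, Fos, Nr4a1, Mt1, Mt2, Isg15, Icam1, Cxcl10, Prrc2a, Gbp2, C4b, Pf4, Tmem119, Nfkbia, Lamc1, Jun, Klf6, Tsc22d3, Fkbp5, Hmox1 and Slc11a1 were named after their values were seen. Promoters came from the RefSeq table of GRCm38.p6, matched by symbol. Some genes that the rule names are not reported here.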

Additional observations from a re-analysis of the deposited data

Results flagged for a closer look

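In 20 of 407 gene and group combinations checked, 1 HA library stood apart from the rest of its group by Dixon's test, and chance alone is expected to set apart about 1 in 20. LPS library 1-1 was the highest of its group in Cckbr (5.798 CPM), Myl9 (19.1 CPM) and Tmem263 (11.6 CPM), and the lowest in Ly6a (118 CPM). LPS library 2-1 was the highest in Cxcl1 (29.3 CPM). LPS library 2-2 was the highest in H2-DMa (36.5 CPM) and Icam1 (41.1 CPM), and the lowest in Spp1 (24.3 CPM). At steady state, library 2-1 was the highest in H2-Ab1 (171 CPM), Zbp1 (3.36 CPM), Fcgr4 (1.35 CPM) and Cxcl1 (0.673 CPM), the last a level of 1 count. Steady-state library 2-2 was the highest in Mmp9 (336 CPM), P4hb (209 CPM), Folr1 (32.9 CPM) and Ms4a6d (2.86 CPM). The other 4 steady-state libraries were each the highest in 1 gene: library 1-1 in Plin4 (14.97 CPM), 1-2 in Spp1 (26.7 CPM), 3-1 in Pglyrp1 (12.7 CPM) and 3-2 in Ppp1r14a (328 CPM).

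The LPS response differed between HA and IgG, by the interaction test of edgeR, in 23 of the genes named. The log2 difference, HA minus IgG, was positive in Hif3a (2.66), Pdgfrb (1.89), Abcc8 (1.69), Txnrd2 (1.65), Plxnb1 (1.61), Entpd3 (1.54), Col4a2 (1.27), Calr (1.22), Plat (1.16) and Gria1 (0.83). It was negative in Ppfibp1 (-3.16), Rbm25 (-2.94), Hnrnpa3 (-2.66), Shank1 (-2.55), Tmem263 (-2.44), Ccpg1os (-2.24) and Srsf3 (-2.11). It was also negative in the ribosomal protein genes Rpl7 (-1.30), Rpl13a (-0.95), Rpl3 (-0.85) and Fau (-0.81), in Cox8a of the respiratory chain (-0.91) and in Stmn2 (-0.98).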

How the results depend on the processing

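The LPS response in HA passed in 1642 to 1910 genes under other scalings, no filter, DESeq2, limma-voom, without the library of low total or with the replicate block, against 1690 as reported, and in 1234 with the 2 HA groups alone. It passed in 1126 genes when libraries of 1 group and first number were summed, which leaves 2 LPS and 3 steady-state HA libraries. With each HA library left out in turn the count was 1044 (without LPS library 1-2) to 2324 (without LPS library 1-1). With libraries of a first number left out, a choice made after seeing the data, it was 574 without the LPS libraries of first number 2, and 1003 without the steady-state libraries of first number 1. The IgG response passed in 875 to 1340 genes with 1 IgG library left out, within 1.5 times the 1293 reported. The difference between HA and IgG, 313 genes as reported, was 543 by DESeq2, 502 by limma-voom, 70 with summed libraries, 175 without the library of low total and 127 to 890 with 1 library left out. The cause of these changes was not tested, beyond the fewer libraries of the sums and omissions. Of the genes named, 1 turned in sign where either value passed, Mmp9 (-0.40, not past the threshold, and 1.28 without the steady-state libraries of first number 2).

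The column numbers are not tied to animals. LPS and steady-state libraries of 1 number had correlations of their deviations from the group means of -0.0917 to 0.134 in HA and -0.0741 to -0.00442 in IgG, and 1 of 4 and 0 of 4 LPS libraries correlated best with their own number. The replicate block on these numbers gave 1910 genes in HA, 1295 in IgG and 366 in the difference. HA and IgG libraries of 1 state and number had correlations of -0.0989 to 0.29, and 4 of 10 HA libraries correlated best with their own number. A replicate block on these pairs, chosen after seeing the data, gave 705 genes in the difference, 312 of them among the 313.

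The HA libraries held 603565 to 1495301 counts, so a gene with a few counts in a group has a wide interval, and 9680 of 12403 listed genes were tested. With 4 LPS libraries that differ among themselves, single libraries decide many calls near the threshold. State cannot be told apart from the Ddx3y pattern. Transcripts of neurons, choroid plexus and glia were present in both precipitates, and no change in HA is assigned to a cell type here.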
